A study of Drosophila melanogaster with 4 samples.

Results

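The HP1b regions of the X chromosome arm were taken from lists of enriched regions in Drosophila melanogaster embryos. A region was a member when it lay on X with its midpoint outside the last 2 Mb before the centromeric end of the X sequence (FlyBase r5 coordinates). This gave 1625 of the 9130 regions in the series-wide list, 1024 of the 5248 regions of HP1b ChIP replicate 1 and 921 of the 4633 regions of replicate 2. The choice used position only, not the height of the signal. The embryos were 14 to 16 h old and came from Oregon-R, a wild-type laboratory strain with no transgene or mutation named in the labels. The 4 samples were 2 HP1b ChIP libraries, made with antibody Q4114 from formaldehyde-fixed chromatin, and 2 Input libraries, 1 for each ChIP library. The labels name neither the sex of the embryos nor whether the replicates came from separate collections, so the spread between replicates may be technical. Whole embryos were used, so a region is an average over all cell types. The lists hold positions and 1 score per region but no read counts, and the depth is unknown.

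HP1b belongs to the Heterochromatin Protein 1 family. These proteins carry a chromodomain, which binds methylated lysine 9 of histone H3, and a chromoshadow domain, through which they pair with each other and recruit partners. In flies HP1a is best known at pericentric heterochromatin, while HP1b is found in both heterochromatin and euchromatin. The X is present once in males and is transcribed there at a raised rate under the MSL dosage compensation complex. The euchromatic X is numbered from the telomere (distal end) towards the centromere (proximal end).

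HP1b regions occupied more of the X arm than of the large autosomal arms, with more regions per Mb and a larger share of wide ones. They covered 13.1% of the X arm in replicate 1 and 11.0% in replicate 2 (12.1% ± 1.42, SD, n = 2). On 2L, 2R, 3L and 3R together, each likewise without its centromeric 2 Mb, they covered 9.36% and 8.20% (8.78% ± 0.823, SD, n = 2). Cover on X was thus 1.39 times the autosomal value in replicate 1 and 1.35 times in replicate 2. The most covered single autosomal arm, 2R, was nearer to X, at 10.5% and 9.48%. The X arm held 50.1 and 45.1 regions per Mb, against 39.2 and 35.7 on the autosomal arms, and no single autosomal arm exceeded 44.0 in replicate 1 or 41.5 in replicate 2. In the replicate lists the typical region was about as wide on the X arm as elsewhere, its median being 2220.5 bp for replicate 1 and 2164 bp for replicate 2, against 2188 bp and 2132 bp on the autosomal arms. Among series-wide regions that overlapped both replicates the median was larger on X, at 2861 bp against 2545 bp. In the whole series-wide list the medians were 2115 bp and 2082 bp. The wide end of the replicate lists differed more: 57 of 1024 and 33 of 921 X-arm regions spanned at least 5 kb (5.57% and 3.58%), against 2.02% and 1.61% of autosomal regions. Each library gave both values, and X exceeded the autosomal cover by 3.69 percentage points in replicate 1 and 2.85 in replicate 2. No test was made, since an exact two-sided permutation test on 2 pairs cannot go below p = 0.5, and regions and bins were not treated as replicates.

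The excluded centromeric 2 Mb of X was sparser than the arm in every list. It was covered 6.41% in replicate 1 and 4.67% in replicate 2, with 24.5 and 18.5 regions per Mb. The last member of replicate 1 before the limit lay at 20380804 to 20383632 (score 1.71) and the first region past it at 20501318 to 20503412 (score 0.66). In replicate 2 these were at 20380756 to 20383737 (score 1.59) and 20526863 to 20528627 (score 0.67). In the series-wide list they were at 20395220 to 20397058 (score 0.32) and 20501296 to 20503398 (score 0.49). No region straddled the limit in any of the 3 lists.

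HP1b was present along the whole arm, and the distal and proximal 50% of it differed little. The distal 50% was covered 12.6% in replicate 1 and 10.9% in replicate 2, and the proximal 50% was covered 13.5% and 11.2%. The difference, distal minus proximal, was -0.61 ± 0.313 percentage points (SD, n = 2). Over the whole X sequence it was 0.22 ± 0.293 points (SD, n = 2). That setting counts in the sparse centromeric 2 Mb and also moves the dividing point towards the centromere. Scores had almost no rank relation with position: the Spearman rho of score with position was 0.00050 over the 1024 regions of replicate 1 and -0.0022 over the 921 of replicate 2, given as a description. The first region of replicate 1 began 9307 bp from the distal end of the sequence and that of replicate 2 began at 18750.

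Within the arm, richer and poorer stretches followed each other at the scale of 1 Mb, and largely the same stretches in both replicates. Over the 20 full windows of 1 Mb, cover ran between 8.08% and 19.1% in replicate 1 and between 6.78% and 16.1% in replicate 2, and replicate 1 was higher in all 20. The window from 6000001 to 7000000 was the richest, with 19.1% in replicate 1 and 16.1% in replicate 2 (66 and 59 regions). Next came 1000001 to 2000000, with 15.8% and 14.7% (67 and 61 regions), and 15000001 to 16000000, with 16.1% and 14.1% (62 and 58 regions). The poorest was 4000001 to 5000000, with 8.08% and 6.90% (27 and 24 regions), followed by the terminal window from 1 to 1000000, with 10.0% and 6.78% (43 and 29 regions), and by 3000001 to 4000000, with 9.44% and 8.55% (41 and 39 regions). Mean cover over both replicates was 2.35-fold higher in the richest window than in the poorest. The cover of the replicates correlated with a Pearson r of 0.942 over the 20 windows of 1 Mb and 0.944 over 204 windows of 100 kb. At 20 kb it was 0.920 over 1021 windows, of which 378 were empty in both replicates and enter the r as shared zeros. Another 34 were empty in replicate 1 alone and 90 in replicate 2 alone. These correlations are descriptions, since all windows of a replicate share 1 library.

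**Figure D1:**
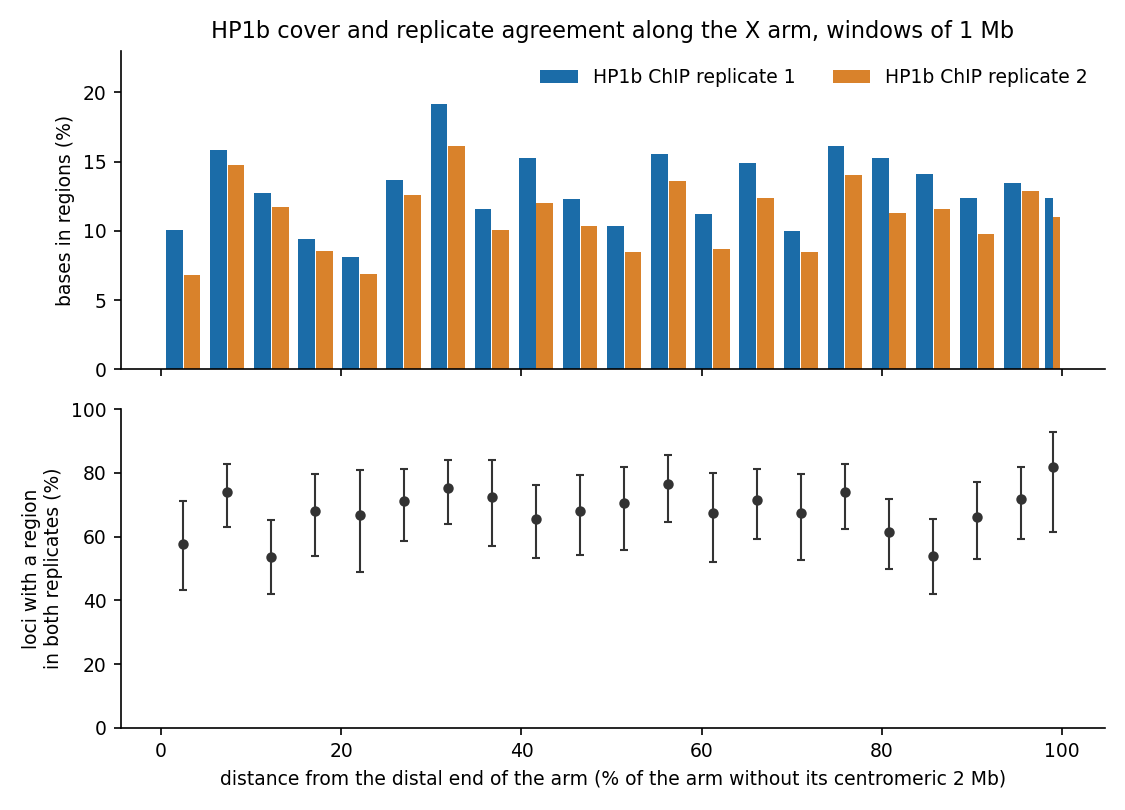
Top: percent of bases in HP1b regions in windows of 1 Mb along the X arm, with replicate 1 in blue and replicate 2 in orange. Bottom: percent of loci with a region in both replicates, with 95% Wilson intervals that cover counting error only. The x axis is the distance from the distal end in percent of the arm, and the last window is incomplete. Both replicates are highest in the same window (19.1% and 16.1%), and replicate 1 is the higher one throughout.

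HP1b cover was spread unevenly over windows of 100 kb. Of the 204 windows, 55 (27.0%) held 50% of the mean cover of the replicates, and the 20 richest held 21.7%. No value from the autosomal arms or from independent placement was computed beside these shares. The number of regions per 100 kb had a variance-to-mean ratio of 2.00 in replicate 1 and 2.01 in replicate 2, against 1.99 and 2.02 on the autosomal arms. A value of 1 would be that of regions placed independently. By this measure X differed from the pooled autosomal arms by less than the spread between replicates, and single autosomal arms ran between 1.83 and 2.28 in replicate 1 and between 1.79 and 2.37 in replicate 2. In the series-wide list the ratio was 1.92 on X and 2.16 on the autosomal arms. Counted by midpoints, 16 of the 204 X windows were empty in replicate 1 and 18 in replicate 2 (7.84% and 8.82%), against 11.6% and 13.7% of the 885 autosomal windows. Single autosomal arms ran between 7.56% (3L) and 17.1% (2L) in replicate 1 and between 9.42% (2R) and 20.5% (2L) in replicate 2, so 3L had a lower share than X in replicate 1. No X window was empty in the series-wide list, against 37 of the 885 autosomal ones.

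Neighbouring regions lay closer together on the X arm than on the pooled autosomal arms, which also held fewer regions per Mb. The median gap between consecutive regions was 6944 bp in replicate 1 and 7317 bp in replicate 2 (7130.5 bp ± 264, SD, n = 2), against 9321 bp and 10449 bp on the autosomal arms (9885 bp ± 798, SD, n = 2). The 25th and 75th percentiles of X gaps were 2658.5 and 16934.5 bp in replicate 1 and 2717.5 and 19820.5 bp in replicate 2. Compared with the pooled autosomal arms, less of the X arm lay in long gaps and slightly more of its gaps were very short. Of the X arm, 43.0% (replicate 1) and 48.7% (replicate 2) lay in gaps over 50 kb, against 49.4% and 53.8% for the autosomal arms. The value was not particular to X, since 2R had 42.2% and 44.8% in such gaps. Gaps under 1 kb made up 9.38% and 10.3% of all X gaps, against 8.40% and 7.56% of the autosomal ones. Some of these short gaps separate pieces of what another list gives as 1 region. Of the 95 gaps under 1 kb in replicate 2, 34 were bridged by a replicate 1 region and 43 by a series-wide region. Of the 96 in replicate 1, 6 were bridged by a replicate 2 region and 32 by a series-wide region.

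**Figure D2:**
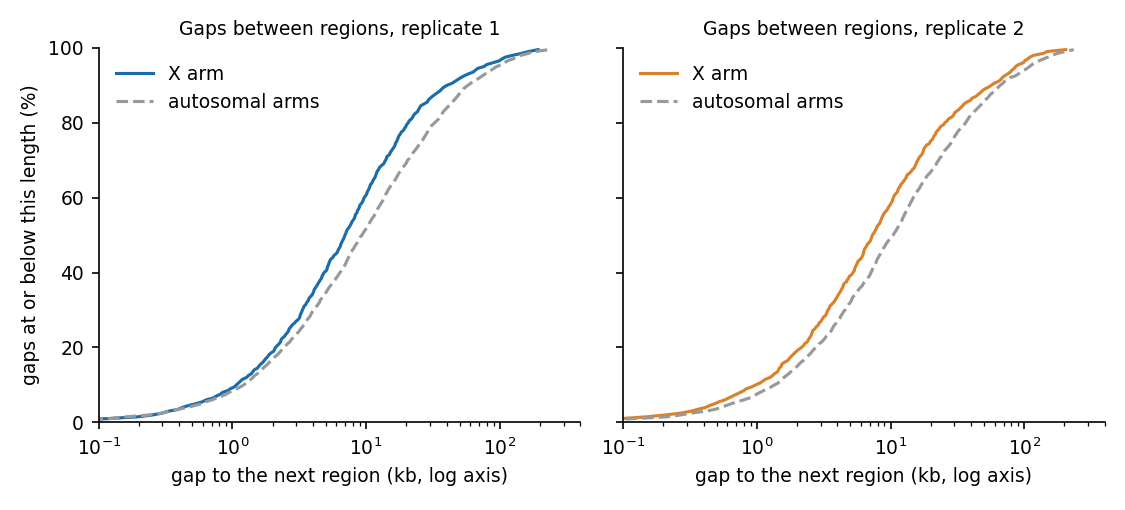
Cumulative share of gaps (y axis, percent) against gap length (x axis, kb, log scale) for replicate 1 (left) and replicate 2 (right). The solid line is the X arm and the dashed line the autosomal arms. The X line lies to the left over most of the range, with medians of 6944 and 7317 bp against 9321 and 10449 bp.

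The longest stretches without HP1b regions were largely shared by the replicates. The longest gap between series-wide regions found in both replicates ran from 7240815 to 7511373 (270559 bp). Neither replicate had a region inside it, and the gap measured 270646 bp in replicate 1 and 270933 bp in replicate 2. The third longest, from 12098683 to 12355791 (257109 bp), also held no region of either replicate. The second, from 19793317 to 20052215 (258899 bp), held 1 replicate 2 region of score 0.71, and the fourth (14142625 to 14376699) and the fifth (4583477 to 4802883) held 1 replicate 1 region each, of scores 0.60 and 0.56. The series-wide list placed 4, 6, 5, 4 and 12 regions inside these gaps, in order of length, covering between 1.89% and 7.25% of them. Among all gaps over 50 kb, replicate 1 had 86 (8.78 Mb) and replicate 2 had 103 (9.94 Mb). Their intersection was 8.01 Mb, which is 91.2% of the length in replicate 1 and 80.6% of that in replicate 2. In 30 of the 86 both edges lay within 1 kb of those of a replicate 2 gap.

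Most X-arm regions belonged to groups, defined as runs of regions with gaps of at most 10 kb. Such groups held 82.5% of replicate 1 regions and 81.3% of replicate 2 regions (81.9% ± 0.845, SD, n = 2), against 74.9% and 72.5% on the autosomal arms. The share depends on the distance chosen and on the number of regions per Mb, which was also higher on X. It was 63.4% at 5 kb and 92.7% at 20 kb. Replicate 1 formed 224 groups and left 179 regions single, and replicate 2 formed 214 groups and left 172 single. Groups of 5 or more regions numbered 64 and 52 and held 41.9% and 35.3% of the regions. Grouped regions of replicate 1 had a median score of 0.80, against 0.64 for single ones, while in replicate 2 the medians were 0.84 and 0.82.

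The largest groups of regions found in both replicates lay in 3 parts of the arm, near positions 2, 7 to 8 and 13 to 14 Mb. The group from 1925224 to 1989580 held 10 such regions in 64.4 kb, and 42.0% of it was covered in replicate 1 and 46.9% in replicate 2. A second group of 10 regions, from 1815914 to 1879530 (63.6 kb), lay just distal to it and was covered 35.0% and 35.6%. The group from 13629056 to 13684126 held 9 regions in 55.1 kb, with 44.3% and 38.4% covered. The groups from 7984018 to 8052912 and from 7178200 to 7240814 held 8 regions each, with 41.2% and 34.7% covered in the first and 47.6% and 45.8% in the second. The last of these borders the longest gap of the arm.

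Taken locus by locus, a region of 1 replicate usually had a counterpart in the other. Of the 1024 X-arm regions of replicate 1, 776 (75.8%, 95% Wilson interval 73.1 to 78.3%) met a replicate 2 region over 1 bp or more, and the share over the whole series was 74.5%. Of the 921 regions of replicate 2, 806 (87.5%, interval 85.2 to 89.5%) overlapped a replicate 1 region, against 85.9% over the whole series. Both X shares are near those of the whole series. On the autosomal arms the shares were 79.2% and 87.5%. When the regions of both replicates were merged into loci, 1133 loci resulted. Of these 770 (68.0%) had both replicates, 248 (21.9%) replicate 1 alone and 115 (10.2%) replicate 2 alone. Merged loci were counted on the X arm only, so these shares have no value from other arms beside them. By length the replicates shared 1.95 Mb, which is 73.1% of the bases of replicate 1 and 86.3% of those of replicate 2. The intervals reflect counting error only, as if regions were independent of each other.

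The share of matched loci varied along the arm. It was lowest in the windows from 2000001 to 3000000 (53.7%, 36 of 67 loci) and from 17000001 to 18000000 (53.8%, 35 of 65), and highest among the full windows from 11000001 to 12000000 (76.7%, 46 of 60). The intervals of these windows overlap. In the distal and the proximal 50% of the arm, 76.0% and 75.6% of replicate 1 regions were found again, and 86.8% and 88.2% of replicate 2 regions. The longest unbroken run of shared loci held 13, from 1772605 to 1869060, and starts with the second strongest region of the arm. The longest run of replicate 1 alone held 4 loci (3301471 to 3348767) and that of replicate 2 alone held 2.

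Where the replicates met, they agreed closely on position. In 730 of the 770 shared loci each replicate had exactly 1 region. Over these 730 the starts differed by a median of 110.5 bp and the ends by a median of 120 bp, against 89 and 94 bp over 2653 such pairs on the autosomal arms. The midpoints lay within 100 bp of each other in 374 pairs (51.2%), and in 67 pairs a start or an end differed by more than 1 kb. Replicate 1 was the wider in 512 pairs (70.1%). The median was 2404 bp for its regions and 2257.5 bp for their replicate 2 partners, and replicate 1 regions extended beyond the replicate 2 region at both ends in similar measure, with medians of 46 bp at the start and 44 bp at the end. The replicate 2 region lay wholly inside its partner in 290 pairs and the reverse held in 88. Strong regions matched best. In the 244 pairs with the highest mean score the starts differed by a median of 73 bp and the ends by 90 bp, and the median Jaccard index (shared bases over all bases of the pair) was 0.937. In the 243 pairs with the lowest these were 159 bp, 153 bp and 0.792.

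The remaining 40 shared loci were divided in at least 1 replicate. Division was more frequent on X. Of all overlapping pairs, 730 of 812 on the X arm were each other's only partner, against 2653 of 2795 on the autosomal arms. Replicate 1 had 35 regions that met more than 1 replicate 2 region, and replicate 2 had 6 that met 2 replicate 1 regions. The most divided was the replicate 1 region at 12794072 to 12802049 (7978 bp, score 1.24), which replicate 2 gave as 3 pieces with scores of 1.02, 0.49 and 1.47. The other named cases were wider. The region at 7590151 to 7604381 (14231 bp, score 1.20) appeared in replicate 2 as a piece of 2825 bp (score 0.53) and another of 12428 bp (score 1.10). That at 4823159 to 4835644 (12486 bp, score 1.52) appeared as pieces of 8216 bp (score 1.40) and 3449 bp (score 1.35).

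The score of a region went together with its width and with its being found again. Score and width had a Spearman rho of 0.771 in replicate 1 and 0.741 in replicate 2, against 0.790 and 0.775 on the autosomal arms. In replicate 1, 43.8% of the 256 lowest-scoring X regions were found in replicate 2 (interval 37.8 to 49.9%), then 62.5% and 96.9% of the next sets of 256, and all 256 of the highest-scoring. In replicate 2 the same ordered sets gave 77.8%, 82.6% and 89.6% of 230 each and all 231 of the highest-scoring. Regions with the nearest neighbour more than 20 kb away were found again in 62.5% of 64 cases in replicate 1 and 71.4% of 77 in replicate 2. At 10 to 20 kb the shares were 60.9% and 80.0%, at 2 to 10 kb 78.9% and 91.6%, and within 2 kb 78.6% of 351 and 88.2% of 322, so the share did not change evenly with distance. These stand beside median scores of 0.62 for isolated and 0.81 for close regions in replicate 1, and 0.82 and 0.80 in replicate 2. The part of score and width in this difference was not tested.

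**Figure D3:**
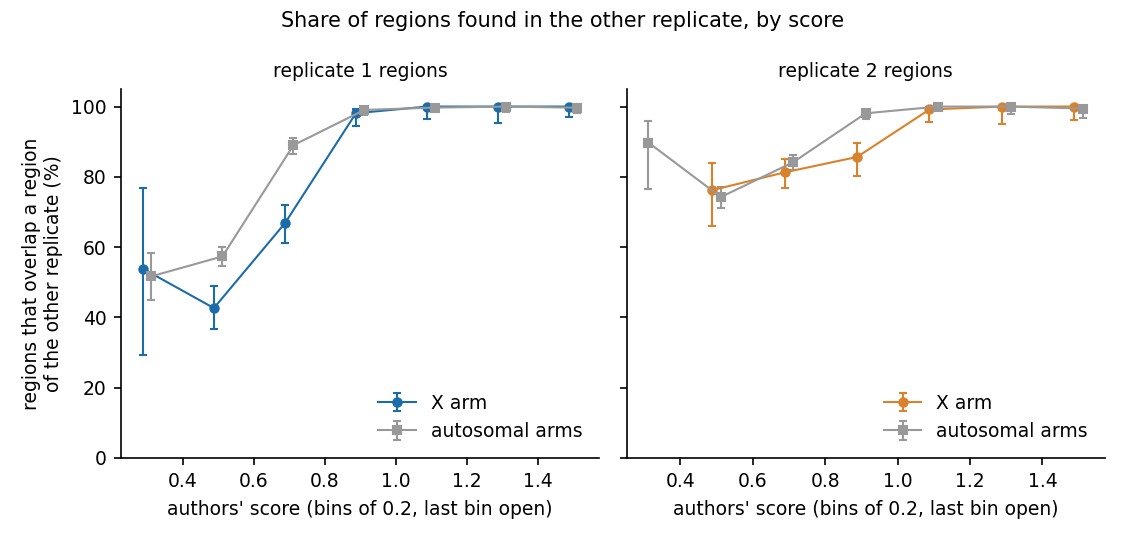
Percent of regions that overlap a region of the other replicate (y axis), by the authors' score in bins of 0.2 with an open last bin (x axis), for replicate 1 (left) and replicate 2 (right). Coloured circles are the X arm, grey squares the autosomal arms, and bars are 95% Wilson intervals. In replicate 1 the X arm lies at 66.8% in the bin from 0.6 to 0.8, where the autosomal arms are at 89.0%.

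X-arm regions scored higher than autosomal ones by a similar amount at nearly every level. In replicate 1 the median score was 0.76 on the X arm and 0.66 on the autosomal arms, and at the 5th percentile the scores were 0.46 and 0.39. At the 95th percentile they were 1.69 and 1.56. In replicate 2 the medians were 0.83 and 0.72, the 5th percentiles 0.56 and 0.47, and the 95th percentiles 1.58 and 1.43. The difference, X minus autosomal, ran between 0.076 and 0.13 over the percentiles from 5 to 95 in replicate 1, and between 0.098 and 0.16 in replicate 2. The weakest regions on the lists thus scored higher on X as the middle ones did. Over all scores, 75.8% of X and 79.2% of autosomal regions of replicate 1 were found again, and 87.5% of each in replicate 2. In some score ranges the X arm had fewer matches. An equal score was also a lower rank on X than on the autosomal arms, as X scores ran higher. The part of rank in the fewer matches was not tested, and no shares at equal rank were computed for the autosomal arms. Between 0.6 and 0.8 in replicate 1, 66.8% of 286 X regions were found again (interval 61.1 to 72.0%), against 89.0% of 691 autosomal ones (interval 86.4 to 91.1%). For replicate 2 in the range of 0.8 to 1, 85.6% of 216 X regions and 98.1% of 522 autosomal ones were found again. Its shares were closer in the range of 0.6 to 0.8, with 81.3% of 331 X regions and 84.2% of 1024 autosomal ones. At scores of 0.4 to 0.6 the replicates differed: replicate 1 had 42.6% of 251 X regions (interval 36.7 to 48.8%) and 57.3% of 1266 autosomal ones (interval 54.6 to 60.0%), and replicate 2 had 76.2% of 84 X regions and 74.2% of 854 autosomal ones. What the score measures is unknown, and the part of X copy number or of the Input in it was not tested.

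**Figure D4:**
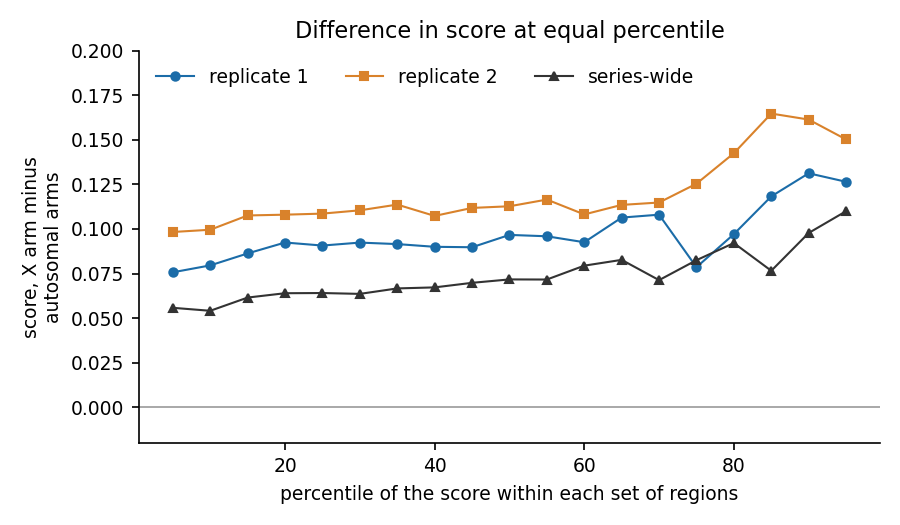
Difference in the authors' score between X-arm and autosomal-arm regions (y axis) at equal percentile of each set (x axis, percent), for replicate 1 (circles), replicate 2 (squares) and the series-wide list (triangles). All points lie above 0, and in the replicates the difference at the 5th percentile is 0.076 and 0.098.

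Among the 760 series-wide X-arm regions found in both replicates, the 4 highest-scoring had the same rank in each replicate. The highest series-wide score among the 760 regions found in both replicates was at 19414392 to 19418094, and this region ranked 1 on the arm in each replicate, with scores of 3.06 and 3.05. The region at 1772582 to 1775652 ranked 2 in each, with 2.77 in replicate 1 and 2.36 in replicate 2. Rank 3 in each was the region at 16732790 to 16735292, with 2.66 and 2.31, and rank 4 in each that at 13888428 to 13891694, with 2.27 and 2.30. The next 6 were at 5222222 to 5224970, 18550264 to 18552818, 5637772 to 5642852, 4559846 to 4562268, 1410428 to 1412962 and 11607256 to 11611990, with series-wide scores between 1.93 and 1.99. These 10 were found as 1 region in each replicate and ranked no lower than 13 in replicate 1 and 18 in replicate 2. Because only regions with a match in each replicate were eligible, their presence in both was fixed by the choice, and the ranks are a description. The region ranked 5 on the series-wide list, at 2315876 to 2317066 (score 2.01), met neither replicate and so was not eligible. Of the 10, 5 lay in the distal 50% of the arm, and their widths ran between 2423 and 5081 bp. Their surroundings differed: 8 belonged to groups, while the region at 13888428 had no neighbour found in both replicates within 102361 bp.

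The widest X-arm regions scored above the median of the series-wide list but below its highest, at ranks between 82 and 304 of 1625, and the replicates divided them differently. The widest, at 7590170 to 7605916 (15747 bp, series-wide score 1.07), was 1 region in replicate 1 and 2 in replicate 2, as given above, and its highest-scoring piece ranked 206 in replicate 1 and 224 in replicate 2. That at 2189176 to 2202302 (13127 bp, score 0.92) held 2 replicate 1 regions and 4 replicate 2 regions, with summed widths of 10112 and 9020 bp. The region at 4822994 to 4835652 (12659 bp, score 1.41) held the region ranked 94 in each replicate. Those at 8784342 to 8796632 (12291 bp, score 0.95) and 9026306 to 9037408 (11103 bp, score 1.18) held 2 replicate 1 regions and 1 replicate 2 region each.

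Scores of matched regions agreed in order but not in every locus. Over all 812 overlapping X pairs the Spearman rho was 0.792 and the Pearson r 0.869. Over the 730 pairs in loci with 1 region per replicate they were 0.831 and 0.894, against 0.838 and 0.899 on the autosomal arms. The median absolute difference in these 730 pairs was 0.12. Its direction depended on strength: replicate 2 minus replicate 1 had a median of 0.07 in the 243 weakest pairs and -0.11 in the 244 strongest. The score scales of the lists are not known to be equal. Of the 5 largest differences, 4 lay in divided loci. At 9446319 to 9452684 replicate 1 had 1 region of score 1.68, and replicate 2 had 2 regions inside it, of scores 1.89 and 0.67, of which the weaker gave the difference. At 511975 to 516780 replicate 1 scored 1.42, against 0.61 for a replicate 2 region that overlapped it by 153 bp, while its main replicate 2 partner (4454 bp of overlap) scored 1.27. At 13181156 to 13182971 replicate 1 scored 0.47 and replicate 2 scored 1.26, with an overlap of 22 bp. That replicate 2 region mainly matched another replicate 1 region, at 13177345 to 13181034 (3021 bp of overlap, score 1.05). The fourth was the piece of score 0.49 in the locus at 12794072. In the fifth, at 539845 to 542366, both replicates gave 1 region of similar extent (2522 and 2153 bp), yet the scores were 1.66 and 0.91.

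**Figure D5:**
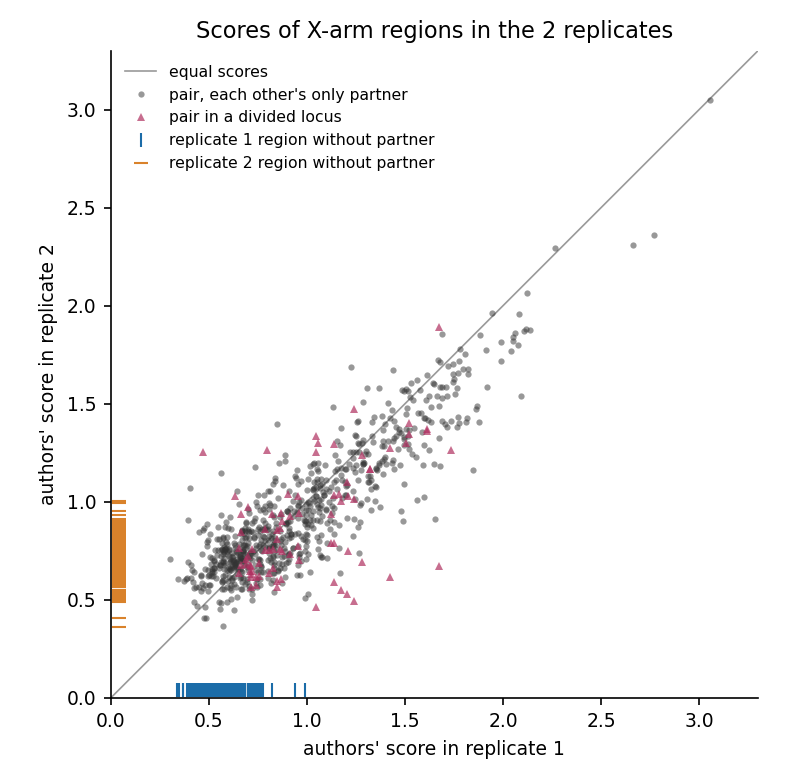
The authors' scores of overlapping X-arm regions in replicate 1 (x axis) and replicate 2 (y axis). Grey circles are the 730 pairs in loci with 1 region per replicate, red triangles are pairs in divided loci, ticks on the axes are regions without a partner, and the line marks equal scores. Regions without a partner end at 0.99 in replicate 1 and 1.01 in replicate 2.

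Regions found in only 1 replicate were weaker and narrower at the median than those with a partner. The 248 of replicate 1 had a median score of 0.58 and were 1705.5 bp wide at the median, against 0.90 and 2441 bp for those with a partner. The 115 of replicate 2 had a median score of 0.73 and were 1625 bp wide at the median, against 0.86 and 2255.5 bp for those with a partner. The nearest region of the other replicate lay a median of 4951.5 bp away for replicate 1 and 3556 bp for replicate 2, and within 1 kb for 32 and 24 of them. Regions lay densely on the arm, with median gaps of 6944 and 7317 bp within each list. No distance expected from that density was computed. The series-wide list holds 246 of the 248 and 106 of the 115. The strongest without a partner in replicate 1 was its first on the arm, at 9307 to 10857 (score 0.99, rank 332). Next came 8793890 to 8796651 (score 0.94), which lay 698 bp from a replicate 2 region and overlapped a series-wide region found in both. The others were at 3326664 to 3328195 (0.82), 12542812 to 12545492 (0.78) and 3250705 to 3252787 (0.77). In replicate 2 they were at 5233245 to 5235374 (score 1.01, rank 284), 8949186 to 8950532 (0.99), 5745791 to 5747181 (0.95), 17833953 to 17835638 (0.93) and 1369767 to 1373619 (0.91). Those at 8949186 and 5745791 are not on the series-wide list.

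The series-wide list of the X arm was composed of 760 regions that overlapped both replicates (46.8%, interval 44.4 to 49.2%, against 41.9% over the whole series). The autosomal arms gave 49.2%. Another 232 X regions (14.3%) overlapped replicate 1 alone, 100 (6.15%) replicate 2 alone and 533 (32.8%) neither. The autosomal shares were near these, at 12.8%, 6.41% and 31.5%. X regions in neither had a median width of 1287 bp, and 274 of them were narrower than 1301 bp, the shortest region in either replicate list. On the autosomal arms the median was 1301 bp, and 856 of 1721 were narrower than that. Among the X regions in neither were 6 with a score of at least 1, all narrower than 1301 bp. The autosomal arms had 18 such scores, 16 of them in regions narrower than 1301 bp. The strongest on X, at 2315876 to 2317066 (1191 bp, score 2.01), ranked 5 of the 1625. It lay 19742 bp from the nearest replicate 1 region and 24210 bp from the nearest of replicate 2. The next were at 15308674 to 15309692 (score 1.58), which lay 307 bp from a replicate 1 region, 14712730 to 14713824 (1.52), 12276028 to 12277200 (1.40) and 800658 to 801810 (1.37). That at 12276028 lies in the third longest gap of the arm, 78732 bp from the nearest replicate 1 region. By contrast, series-wide X regions that overlapped replicate 1 alone scored at most 0.79, and those that overlapped replicate 2 alone at most 0.68.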

How the data were processed

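HP1b ChIP (2 libraries) and Input (2 libraries) were grouped by title. The submitters' processing notes name Bowtie 0.12.7. Positions follow FlyBase r5, per the file headers. Caller, threshold and the making of the series-wide list are not given. The deposited score per region, of unknown definition and scale, served only to rank and describe regions. No Input list was analysed.

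Overlap meant at least 1 bp, and groups joined gaps of at most 10 kb. Autosomal arms excluded their centromeric 2 Mb. Shares carry 95% Wilson intervals. With 2 ChIP libraries no test over samples was made. Python 3.11.15, numpy 2.4.6, pandas 2.3.3, scipy 1.17.1 and matplotlib 3.10.9 were used, and the interval procedures were tested on simulated data.

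Items were named by rule: the 10 highest-scoring and 5 widest regions in both replicates, the 5 longest gaps and largest groups, the 3 richest and poorest 1 Mb windows, the 5 strongest unmatched regions of each list, the 5 largest score differences, the 3 most divided loci and the regions at the limits. Members and rules were chosen with earlier results of these data known. Only a release 6 gene table was at hand, so no gene or sequence is given.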

Additional observations from a re-analysis of the deposited data

How the results depend on the processing

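Of 37 recomputed values in the unit of the value given, 15 stayed within its replicate SD or 95% interval, 21 moved beyond it and 1 reversed. The values leaving out either replicate are not counted, since with 2 replicates each lies within 1 SD of the mean by construction. Only 2 ChIP libraries, unknown depth and an undefined score limit all values, and no paired analysis was possible because the Input libraries, which share the replicate numbers, have no list here. With an overlap of 50% of both regions, 72.1% of replicate 1 and 80.1% of replicate 2 regions were found again and 42.1% of series-wide regions lay in both. The share in both was 56.9% among series-wide regions of at least 1301 bp and 82.9% in the highest-scoring 50%. The X to autosomal cover ratio of 1.37 was above 1 in all 12 alternatives, which here include leaving out either replicate (1.35 to 1.39). It was 1.30 with whole arms, 1.34 without the centromeric 1 Mb, 1.27 as regions per Mb and 1.42 without 2R. In the highest-scoring 50% it was 1.75, but that cut ranked X and autosomal regions together. Scores ran higher on X, so the cut favoured X regions. Grouped regions were 63.4% at 5 kb, 92.7% at 20 kb, 89.4% in the series-wide list, 80.8% among its regions found in both, and 81.3 to 82.5% leaving out either replicate. The median gap was 17681.8 bp in the highest-scoring 50%, which keeps fewer regions, 4318 bp in the series-wide list, 8117 bp among its regions in both, and 6944 to 7317 bp leaving out either replicate. Distal minus proximal cover was 0.22 ± 0.293 points (SD, n = 2) over the whole X sequence. That setting adds the sparse centromeric 2 Mb proximally and moves the dividing point towards the centromere. The difference was -3.28 regions per Mb in that other unit, which the SD of the cover cannot judge. It was -0.83 to -0.39 points leaving out either replicate. Score agreement was a rho of 0.831 in sole partners and 0.836 with overlaps of 50% of both. In the highest-scoring 50% of pairs the starts differed by 78 bp and the ends by 91 bp. The cause was not tested unless named.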

Other observations

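All 1625 series-wide X-arm regions start and end at even positions, whereas 47.3% of the starts and 50.8% of the ends of replicate 1 are even, and 49.2% and 49.7% of those of replicate 2.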
